A study of Mus musculus with 4 samples.

Results

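The heat-shock proteins and chaperones were 50 of the 32285 genes counted. They were taken by symbol from a fixed list, which was chosen with earlier results of these data known. They comprised 7 cytosolic Hsp70 genes with the related nucleotide exchange factors, 2 cytosolic Hsp90 genes, 8 J-domain genes, 8 co-chaperone genes, 6 small heat-shock genes, 3 mitochondrial genes, 6 endoplasmic reticulum (ER) genes, 8 subunits of the cytosolic chaperonin and 2 heat-shock factors. Each of the 50 had at least 1 unique molecular identifier (UMI) in the kept cells of every sample. Muscle stem cells (MuSCs) were sorted by their tdTomato signal from skeletal muscle of C57BL/6J mice aged 3-4 months, 14 days after tamoxifen, which was injected on 5 days. All mice carried one *Pax7*CreERT2 allele and the *Rosa26*-tdTomato reporter, so that Cre acted in cells that expressed *Pax7*, and α-cdKO mice were in addition homozygous for floxed *Ctnna1* and floxed *Ctnna3*, which encode αE- and αT-catenin. There were 2 control and 2 α-cdKO samples, and each pooled cells from 2 littermates, so that the spread between samples is not that between single mice. The comparisons asked how the chaperone groups differed between cell states, whether their members were high in the same cells, and whether they differed between genotypes.

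Chaperones bind unfolded or partly folded proteins and keep them from aggregating. Hsp70 proteins cycle between ATP- and ADP-bound states, J-domain proteins start that cycle by stimulating ATP hydrolysis, Bag proteins and the larger Hsp70 relatives release the nucleotide, and Hsp90 takes over selected clients with the help of co-chaperones such as Stip1. Under heat or other proteotoxic stress, the factor Hsf1 forms trimers and binds inverted repeats of GAA (heat-shock elements) in the promoters of cytosolic and mitochondrial chaperone genes, whereas ER chaperones such as Hspa5 (BiP) are induced by the unfolded protein response through a separate promoter element. In skeletal muscle, small heat-shock proteins such as αB-crystallin, encoded by *Cryab*, are abundant in the contractile fibers, and dissociation of the tissue into single cells is itself known to induce immediate-early and heat-shock transcripts in MuSCs.

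The promoters of 8 members are shown as examples of the 2 promoter elements, and they were chosen because they hold a match. The first 5 belong to cytosolic members and to the mitochondrial member *Hspe1*, and the last 3 to ER members. Each is the 250 bases before a transcription start in RefSeq (GRCm38.p6), which can differ from the gene bounds of GENCODE given further on, written 5′ to 3′ on the gene's strand. Capitals mark matches to GAANNTTC or TTCNNGAA in the first 5 (2 inverted GAA units, as in heat-shock elements) and in the last 3 to CCAAT and CCACG with any 9 bases between them, on either strand (the ER stress response element).
Hspa1a chr17:34972157-34972406, − strand: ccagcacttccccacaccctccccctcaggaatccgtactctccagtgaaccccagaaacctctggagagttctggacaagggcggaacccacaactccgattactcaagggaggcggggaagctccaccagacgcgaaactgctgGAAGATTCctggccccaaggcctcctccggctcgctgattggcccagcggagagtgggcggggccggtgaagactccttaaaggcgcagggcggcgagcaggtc
Hspa1b chr17:34959239-34959488, − strand: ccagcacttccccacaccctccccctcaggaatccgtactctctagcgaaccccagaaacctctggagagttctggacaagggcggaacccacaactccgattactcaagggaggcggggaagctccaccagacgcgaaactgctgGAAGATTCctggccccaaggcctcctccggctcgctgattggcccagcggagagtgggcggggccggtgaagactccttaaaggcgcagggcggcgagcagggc
Hsph1 chr5:149636316-149636565, − strand: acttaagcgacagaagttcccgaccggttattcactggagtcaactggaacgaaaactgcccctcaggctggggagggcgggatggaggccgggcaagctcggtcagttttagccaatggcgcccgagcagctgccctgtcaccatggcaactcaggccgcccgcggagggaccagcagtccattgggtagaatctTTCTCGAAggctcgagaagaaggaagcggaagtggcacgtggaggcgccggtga
Hspb1 chr5:135887669-135887918, + strand: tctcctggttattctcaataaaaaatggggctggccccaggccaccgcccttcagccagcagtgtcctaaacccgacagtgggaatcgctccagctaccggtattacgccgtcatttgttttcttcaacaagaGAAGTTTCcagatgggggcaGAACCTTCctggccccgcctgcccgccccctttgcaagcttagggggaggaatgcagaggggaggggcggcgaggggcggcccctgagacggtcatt
Hspe1 chr1:55087898-55088147, + strand: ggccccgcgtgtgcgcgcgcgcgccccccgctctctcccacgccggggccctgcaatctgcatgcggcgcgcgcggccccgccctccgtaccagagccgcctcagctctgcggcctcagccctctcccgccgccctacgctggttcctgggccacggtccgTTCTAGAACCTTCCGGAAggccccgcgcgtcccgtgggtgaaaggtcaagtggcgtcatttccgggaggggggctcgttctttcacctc
Hspa5 chr2:34771840-34772089, + strand: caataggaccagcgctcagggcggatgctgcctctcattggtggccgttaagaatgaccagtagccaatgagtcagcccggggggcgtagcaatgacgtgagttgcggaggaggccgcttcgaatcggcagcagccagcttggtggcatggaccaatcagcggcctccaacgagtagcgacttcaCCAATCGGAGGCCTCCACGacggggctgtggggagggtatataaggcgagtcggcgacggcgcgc
Hsp90b1 chr10:86705445-86705694, − strand: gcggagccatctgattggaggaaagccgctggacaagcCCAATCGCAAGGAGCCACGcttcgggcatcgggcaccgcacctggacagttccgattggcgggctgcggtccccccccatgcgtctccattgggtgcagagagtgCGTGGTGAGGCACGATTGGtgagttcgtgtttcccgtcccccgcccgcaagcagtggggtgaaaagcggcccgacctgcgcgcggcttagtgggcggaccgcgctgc
Dnajc3 chr14:118937682-118937931, + strand: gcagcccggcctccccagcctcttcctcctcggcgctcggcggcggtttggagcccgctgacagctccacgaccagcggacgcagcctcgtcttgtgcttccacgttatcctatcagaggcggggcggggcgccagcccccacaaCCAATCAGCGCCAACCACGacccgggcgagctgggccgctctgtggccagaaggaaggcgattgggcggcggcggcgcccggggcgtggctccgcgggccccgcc

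Windows were found for 42 of the 50 members, and the other 8 were *Hspa8*, *Hsp90aa1*, *Hsp90ab1*, *Hspb2*, *Cryab*, *Hspa9*, *Cct4* and *Hsf1*. GAANNTTC or TTCNNGAA, which read the same on both strands, occurred in 14 of the 42 members (33.3%) and in 14.5% of 27025 genes with a window. The 14 were 3 of 6 cytosolic Hsp70 members (*Hspa1a*, *Hspa1b* and *Hsph1*), 4 of 8 J-domain members, both mitochondrial members with a window, 2 of 4 small heat-shock members, 1 of 8 co-chaperones and 2 of 7 chaperonin subunits, and 0 of 6 ER members. A run of 3 units (TTC, GAA and TTC with any 2 bases between units, on either strand) contains the shorter motif and was found for *Dnajb6*, *Hspd1* and *Hspe1* (7.14%, against 0.514% of genes). *Hspd1* and *Hspe1* are divergent neighbors, and their windows share 215 bases on opposite strands, including the run of units. The ER element was found for *Hspa5*, *Hsp90b1* and *Dnajc3* (7.14%, against 0.13% of genes), and the *Hsp90b1* window held it 2 times. The windows of *Hspa1a* and *Hspa1b* are identical at 247 of 250 positions, and the genes are near-identical copies, so that reads may have been split between them or lost, and their separate levels are uncertain. Where a gene had several starts, it was counted if any window matched. Members without a match lay at both ends of the comparison of cell states below. *Dnajb1* and *Bag3*, which were among the 5 members with the lowest ratios of activated-like over quiescent-like cells, held neither motif, and neither did *Dnajb9* and *Dnajb11*, which were among the 5 with the highest. A match describes letters in a window and is not evidence of binding.

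The samples held 46099310 to 74921651 UMIs, and 5354 to 9786 cells per sample passed the filters, with medians of 6452.5 to 8075 UMIs. Clustering without the chaperone genes gave 27124 myogenic cells, of which 5836 were quiescent-like, 19256 activated-like, 1370 differentiated-like and 662 cycling-like by markers. The 10 quiescence markers summed to 1389 to 2017 CPM in quiescent-like and 544 to 767 CPM in activated-like cells, and the 9 activation markers to 1151 to 1282 and 3466 to 4902 CPM. The other cells were 1351 mature muscle-like cells, 829 of them in control replicate 2, and 181 endothelial-like and 134 immune-like cells. *Ctnna1*, the one targeted gene with enough counts, had 4239 and 3073 (control) and 5542 and 5520 UMIs (α-cdKO) over all myogenic cells (log2 fold change −0.11 ± 0.14 SE, adjusted p = 0.854 by edgeR's quasi-likelihood test), and *Ctnna3* had 1, 2, 2 and 7 UMIs. UMIs near the 3′ end may come from outside the deleted part, so these values do not check the labels. Pairs of samples shared 9 to 26 cell barcodes.

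Levels are UMIs per 1000000 UMIs of a sample and cell state (CPM), and values are listed for replicates 1 and 2 of each genotype. Differences between states are descriptions without a test, because clusters and levels come from the same cells. As sums, each of the 5 cytosolic groups was higher in quiescent-like than in activated-like cells in all 4 samples, and the ER group was lower. The 50 members together held 75619.9 and 116045 CPM (control) and 73139 and 115169 CPM (α-cdKO) in quiescent-like cells and 33671, 52473, 39494 and 52432 CPM in activated-like cells in the same order. In each sample the quiescent-like value was the higher, and the replicates numbered 2 were above those numbered 1 in both states. Immediate-early genes, 18 genes induced early in activation and by dissociation, moved the same way, with 23164, 24161, 14525 and 20542 CPM in quiescent-like cells and 8329, 7231, 5079.6 and 7856 CPM in activated-like cells, and their part in the difference was not tested. Endothelial-like cells held 19334, 25006, 15880.2 and 22241 CPM of cytosolic Hsp70, and their 6 markers summed to 11.7 to 23.7 CPM in quiescent-like and 3.31 to 4.25 CPM in activated-like cells, and their part was not tested.

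**Figure D1:**
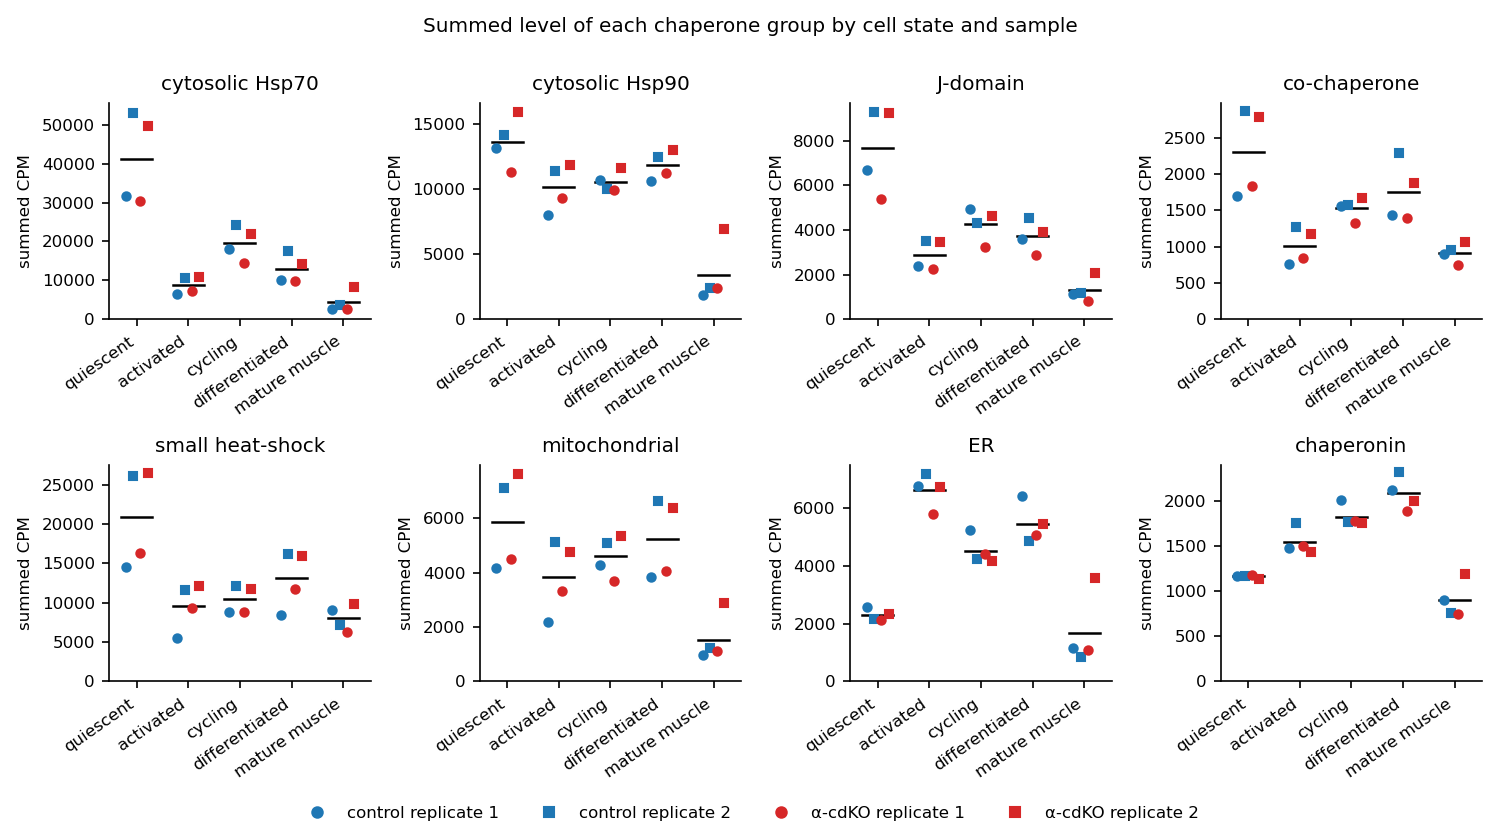
Summed level of each chaperone group (CPM, linear axis from 0) in 5 cell states. Points are the 4 samples, circles replicate 1 and squares replicate 2, with controls in blue and α-cdKO in red, and bars are means over samples. Hsp70 and J-domain sums are highest in quiescent-like cells, the ER sum is highest in activated-like cells, and squares lie above circles in most cytosolic panels.

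Of the 9 groups, Hsp70 carried the largest difference between these states. The summed Hsp70 group was 31606 and 53166 CPM (control) and 30383 and 49634 CPM (α-cdKO) in quiescent-like cells and 6499, 10597, 7148 and 10981 CPM in activated-like cells, a log2 ratio of activated-like over quiescent-like of −2.22 ± 0.11 (mean ± SD, n = 4). *Hspa1a* (chr17:34969190-34972156, − strand, GRCm38), a stress-inducible Hsp70, was at 13082 and 21092 CPM (control) and 11145 and 19295 CPM (α-cdKO) in quiescent-like and 1011, 1616, 753 and 2119 CPM in activated-like cells, with a log2 ratio of −3.62 ± 0.30. Its copy *Hspa1b* (chr17:34956436-34959238, − strand) was at 10018 and 21069.8 CPM (control) and 11292 and 19217 CPM (α-cdKO) and 993, 2182, 1165 and 2637 CPM, with a log2 ratio of −3.19 ± 0.22. For both genes, every activated-like value was below every quiescent-like value. *Hspa8*, the constitutive Hsp70, was in activated-like cells at 3337, 4995, 4022 and 4517 CPM, against 5865, 7746, 5359 and 7782 CPM in quiescent-like cells, and its log2 ratio was −0.66 ± 0.18. *Hsph1*, an exchange factor of the Hsp110 type, had a ratio of −1.20 ± 0.19, *Hspa4l* of −0.88 ± 0.17 and *Hspa2* of −0.68 ± 0.10. *Hspa4*, also of the Hsp110 type, went the other way (0.87 ± 0.11), at 195, 198, 155 and 167 CPM in activated-like and 116, 97.04, 86.5 and 91.5 CPM in quiescent-like cells, and its states did not overlap. The size of the group's difference depended on how cells were clustered. The log2 ratio of the Hsp70 sum was −3.88 when the chaperone genes were kept among the clustering genes and −3.33 at a finer clustering resolution, where clusters of 9860 and 7438 cells stayed unnamed. Members led both clusters, 9 of the 10 leading genes of the first and 4 of the 10 of the second. They took up 39.1% and 31.6% of the cells counted as activated-like above, whose Hsp70 sums were 12628 to 21465 and 12495 to 22774 CPM, against 2203 to 2653 and 2949 to 4116 CPM in the cells that kept the name, and 24.5% and 22.7% of the quiescent-like cells. In both settings, cells with higher Hsp70 sums were thus left out of both states, and a larger share of the activated-like one.

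The J-domain group was at 6697 and 9276 CPM (control) and 5393 and 9237 CPM (α-cdKO) in quiescent-like cells and 2389, 3501, 2260.4 and 3439 CPM in activated-like cells, a log2 ratio of −1.39 ± 0.10. *Dnajb1* (chr8:83608193-83612653, + strand), the stress-inducible partner of cytosolic Hsp70, was at 3855 and 5796 CPM (control) and 2784 and 5486 CPM (α-cdKO) in quiescent-like cells and 773, 998, 373 and 1013 CPM in activated-like cells (−2.55 ± 0.25). The 4 activated-like values lay below all quiescent-like values, and α-cdKO replicate 1 was the lowest sample in both states. *Dnaja1*, a farnesylated partner of Hsp70, was at 1937, 2257, 1677 and 2481 CPM in quiescent-like and 892, 1521, 1064 and 1511 CPM in activated-like cells (−0.77 ± 0.24), and *Dnajb4* was at 206, 306, 237 and 269 CPM and 85.4, 72.99, 78.4 and 90.5 CPM (−1.63 ± 0.33). *Dnaja4* was at 432, 658, 418 and 728 CPM in quiescent-like and 154, 351, 199.5 and 317 CPM in activated-like cells (−1.17 ± 0.25). In each of these 4 genes the states did not overlap. *Dnaja2*, *Dnajb6* and *Dnajb2* were higher in activated-like cells in all 4 samples, with ratios of 1.11 ± 0.11, 0.94 ± 0.10 and 0.75 ± 0.16, so that the group was not uniform. *Dnajb5* stayed at or under 14.6 CPM in both states.

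**Figure D2:**
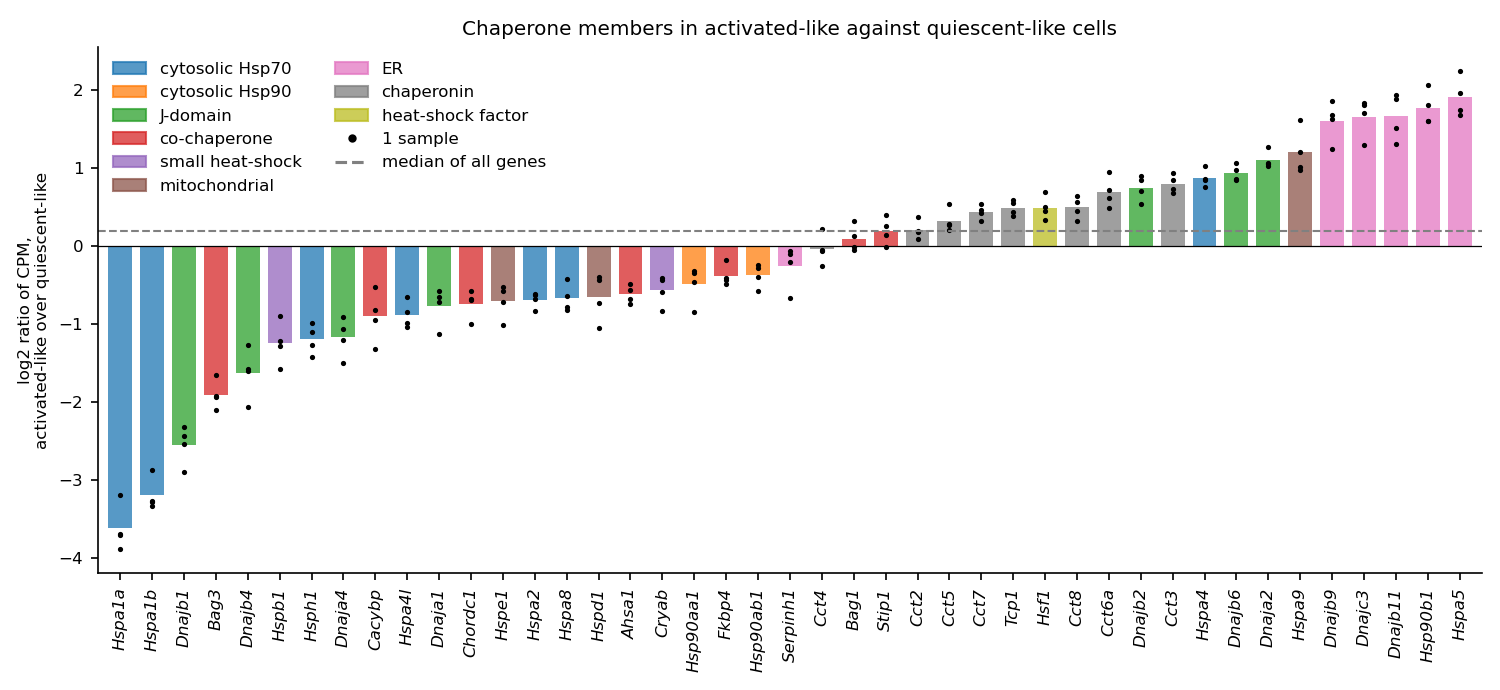
Log2 ratio of CPM in activated-like over quiescent-like cells for the 43 members with a mean of at least 20 CPM in either state. Bars are means over the 4 samples, dots single samples, colors the groups, and the dashed line the median of all genes at 0.19. *Hspa1a*, *Hspa1b* and *Dnajb1* lie lowest and 5 of the 6 ER members highest.

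Hsp90 differed far less. *Hsp90aa1*, the inducible cytosolic Hsp90, was at 7288 and 7549.8 CPM (control) and 5696 and 8548 CPM (α-cdKO) in quiescent-like cells and 4068, 5956, 4586 and 6220.0 CPM in activated-like cells (−0.49 ± 0.24), and the constitutive *Hsp90ab1* was at 5835, 6547, 5579.9 and 7348 CPM and 3931, 5390.2, 4729.9 and 5572 CPM (−0.37 ± 0.15). The ranges over samples overlapped between the states for *Hsp90aa1* and lay just apart for *Hsp90ab1*, and each sample was lower in its activated-like cells. Among co-chaperones, *Bag3*, which links Hsp70 to small heat-shock proteins and selective autophagy, was at 1006 and 1880.1 CPM (control) and 1064 and 1796 CPM (α-cdKO) in quiescent-like and 319, 436, 281 and 469.9 CPM in activated-like cells (−1.90 ± 0.19). *Cacybp*, an Hsp90-linked adaptor, was at 251, 418, 315 and 428 CPM and 100.2, 291, 164 and 243 CPM (−0.90 ± 0.33), and its states overlapped between samples. The Hsp90 co-chaperones *Chordc1* and *Ahsa1*, and the immunophilin *Fkbp4*, were lower in activated-like cells in all 4 samples (−0.73 ± 0.18, −0.61 ± 0.12 and −0.38 ± 0.14). *Stip1*, which bridges Hsp70 and Hsp90, was higher in 3 of 4 samples (0.20 ± 0.17) at 121, 200.5, 152 and 172 CPM in activated-like and 122, 152, 126 and 155 CPM in quiescent-like cells, and *Bag1* in 2 of 4 (0.10 ± 0.17). *Bag2* was at 5.90, 9.13, 8.60 and 7.29 CPM and 7.81, 8.58, 8.40 and 8.71 CPM.

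*Hspb1* (chr5:135887919-135889563, + strand), a small heat-shock protein that binds actin and unfolded proteins, was at 12644 and 22915 CPM (control) and 14217 and 22994 CPM (α-cdKO) in quiescent-like cells and 4259, 9834, 7655 and 9504 CPM in activated-like cells, a log2 ratio of −1.24 ± 0.28. All activated-like values lay below all quiescent-like values, and control replicate 1 was lowest in both states. *Cryab* was at 1882, 3227, 2132 and 3465 CPM in quiescent-like cells and 1251, 1822, 1605 and 2565 CPM in activated-like cells (−0.56 ± 0.19), with overlapping ranges. *Hspb2*, *Hspb6*, *Hspb7* and *Hspb8* were at 24.1 CPM or less in every sample of both states. In contrast, mature muscle-like cells held more of these 4 genes. *Hspb6*, of muscle and heart, was at 1435 and 909.8 CPM (control) and 1067 and 520.4 CPM (α-cdKO) there, *Hspb7* at 589, 259, 343 and 173 CPM, *Hspb2* at 220.4, 181, 194 and 92.5 CPM and *Hspb8* at 203, 174, 121 and 84.8 CPM. By mean, *Hspb1* was lowest there of the 5 states, at 1752, 2969.8, 2077 and 6229.7 CPM. The mature muscle-like class had a median of 3076 UMIs and 0.0766% mitochondrial UMIs per cell, so it differed in RNA content as well as in type. Its make-up also differed between samples. The 118 such cells of α-cdKO replicate 2 had medians of 6126.5 UMIs and 1.54% mitochondrial UMIs, against 2696 to 3523 UMIs and 0.0571% to 0.149% in the other samples. The mean sum of each group other than the heat-shock factors was lowest in this class of the 5 states.

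The mitochondrial matrix chaperonin genes followed the cytosolic members and mitochondrial Hsp70 did not. *Hspe1* (chr1:55088132-55091307, + strand), the co-chaperonin, was at 2774 and 5300.4 CPM (control) and 3186 and 5615 CPM (α-cdKO) in quiescent-like and 1376, 3575, 2209 and 3424 CPM in activated-like cells (−0.71 ± 0.22). Its partner *Hspd1* (chr1:55077835-55088243, − strand) was at 1289, 1717, 1241 and 1928 CPM and 622, 1303, 923 and 1161 CPM (−0.65 ± 0.31). For both genes the ranges of the states overlapped, while each sample was lower in its activated-like cells. *Hspa9*, the Hsp70 of the matrix that also draws in imported proteins, was at 98.1, 75.3, 87.8 and 80.2 CPM in quiescent-like and 193, 232, 178 and 185 CPM in activated-like cells (1.21 ± 0.29), and its states did not overlap. The list of other mitochondrial proteostasis genes had a median ratio of −0.19 over 5 genes at the same level.

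The ER members were higher in activated-like cells. *Hspa5* (chr2:34771970-34777547, + strand), the ER Hsp70, was at 1543 and 998 CPM (control) and 1062 and 1117 CPM (α-cdKO) in quiescent-like cells and 4959.5, 4750.1, 3582 and 4352 CPM in activated-like cells, a log2 ratio of 1.91 ± 0.25. *Hsp90b1*, the ER Hsp90, was at 285, 253, 302 and 281 CPM and 869, 1061, 923 and 988 CPM (1.77 ± 0.22). Both genes were separated between states in all samples, with α-cdKO replicate 1 lowest for *Hspa5* and control replicate 1 lowest for *Hsp90b1* in activated-like cells. The ER J-domain genes *Dnajb9*, *Dnajb11* and *Dnajc3* were at 83.1, 83.7, 96.7 and 89.7 CPM, 33.05, 31.05, 31.5 and 32.98 CPM, and 147, 97.7, 103 and 106 CPM in quiescent-like cells. In activated-like cells they were at 197, 304, 299 and 288 CPM, 82.4, 115, 121 and 94.3 CPM, and 361, 350.1, 362 and 347 CPM, with ratios of 1.60 ± 0.26, 1.67 ± 0.30 and 1.66 ± 0.25. *Serpinh1* (Hsp47), a collagen-specific chaperone of the ER, was the exception, at 479, 688, 534 and 696 CPM in quiescent-like and 302, 597, 511 and 649.7 CPM in activated-like cells (−0.26 ± 0.28), and its ranges overlapped. Of 18 other ER folding and unfolded protein response genes at 20 CPM or more, 15 were higher in activated-like cells in all 4 samples, with a median of 1.35, among them *Manf* at 716 and 119.8 CPM in the 2 states, *Atf4* at 463 and 289 CPM and *Calr* at 462 and 163 CPM.

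The 8 chaperonin subunits, which form the ring that folds actin and tubulin, differed little. Their sum was 1169 and 1162 CPM (control) and 1182 and 1133 CPM (α-cdKO) in quiescent-like cells and 1482, 1749, 1502 and 1433 CPM in activated-like cells (0.40 ± 0.12). *Cct2*, *Cct5* and *Cct6a* were at 223, 213, 227 and 204 CPM, 199, 186, 189 and 181 CPM, and 131, 124, 113 and 117 CPM in quiescent-like cells and at 252, 277, 242 and 233 CPM, 230.0, 270.5, 231 and 219 CPM, and 216, 240.5, 174 and 165 CPM in activated-like cells. Ratios ran from −0.04 ± 0.19 for *Cct4* to 0.80 ± 0.11 for *Cct3*, and 7 of 8 subunits were higher in all 4 samples. The factors themselves were sparse. *Hsf1*, the main heat-shock factor, was at 21.4, 18.5, 15.6 and 18.4 CPM in quiescent-like and 29.2, 26.3, 25.2 and 23.2 CPM in activated-like cells (0.50 ± 0.15). *Hsf2* was at 15.6, 16.1, 16.4 and 15.3 CPM and 11.3, 10.9, 13.6 and 12.7 CPM (−0.39 ± 0.15), below the 20 CPM set for ratios between states.

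Counted over the 43 members at 20 CPM or more, 18 were higher and 22 lower in activated-like cells in all 4 samples, where 51.3% and 36.0% of 4456 genes were. The members' median log2 ratio was −0.26 and that of all these genes 0.19. Of the 43 members, 7 exceeded a ratio of 2-fold upward, near the share of all genes (14.8%), and 8 downward, above that share (7.61%). Other lists differed as well. Of 18 immediate-early genes, 15 were lower in activated-like cells in all 4 samples, with a median of −1.11, whereas the 24 further co-chaperone and prefoldin genes had a median of 0.09.

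Differentiated-like cells, marked by *Myog* and *Mymk*, held more of most members than activated-like cells. Of 44 members, 33 were higher in all 4 samples (51.9% of genes) and 4 lower (26.6%), and the median ratio was 0.44, against 0.20 for all genes. *Hsp90ab1* reached 5732, 6771, 6159 and 7007 CPM and *Cryab* 2929, 4358, 3314 and 4639 CPM in these cells, and each chaperonin subunit was above its activated-like level in each sample, for example *Cct2* at 359, 401, 325 and 346 CPM. *Bag1*, an exchange factor, was at 176, 258, 174 and 207 CPM, with a ratio of 2.02 ± 0.27, and all 4 values were above every activated-like value. *Hspa5* was lower than in activated-like cells at 4087, 2872, 2771 and 3019 CPM. In cycling-like cells, 21 of 45 members were higher than in activated-like cells in all 4 samples (57.2% of genes) and 7 lower (23.0%), and *Hspa1a* was at 6283, 9221, 4252 and 7796 CPM with only 30 such cells in control replicate 1. By mean level over the 4 myogenic states, 15 members were highest in quiescent-like, 6 in activated-like, 7 in cycling-like and 22 in differentiated-like cells. The share over all genes was not counted, so these counts do not show a trait of the members. Some peaks held in few samples, such as those of *Hspa2* and *Bag2* in 1 of 4 and that of *Hsp90ab1* in 2 of 4. Mature muscle-like cells were below activated-like cells in all 4 samples for 36 of 49 members (55.0% of genes) and above them for 9 (34.1%).

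Within a state, the share of a cell's UMIs taken by the 17 cytosolic Hsp70, Hsp90 and J-domain genes varied widely. The median share was 3.04% and 6.33% (control) and 3.22% and 6.27% (α-cdKO) among quiescent-like cells. Among activated-like cells it was 0.887% and 1.19% (control) and 1.04% and 1.26% (α-cdKO). In quiescent-like cells the replicates numbered 2 had about 2-fold the median share of those numbered 1, and the genotypes overlapped. The 90th percentile was 10.7% and 13.96% (control) and 9.69% and 13.9% (α-cdKO) in quiescent-like cells and 3.80% and 6.62% (control) and 4.38% and 6.11% (α-cdKO) in activated-like cells. It stood at 23.1 to 25.2 times the 10th percentile in quiescent-like and 7.78 to 11.6 times in activated-like cells. Activated-like cells peaked between 0.5% and 1% in every sample with a long upper tail. Quiescent-like cells were most frequent in a bin below 1% in every sample, and this bin held 13.2% and 8.57% (control) and 14.4% and 8.95% (α-cdKO) of the cells. In the replicates numbered 1 no bin from 2.5% upward held more than 4.70% of the cells, and in the replicates numbered 2 the bins from 1% to 11% held 2.08% to 4.47% each. Among quiescent-like cells, no bin below 15% was empty in any sample.

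**Figure D3:**
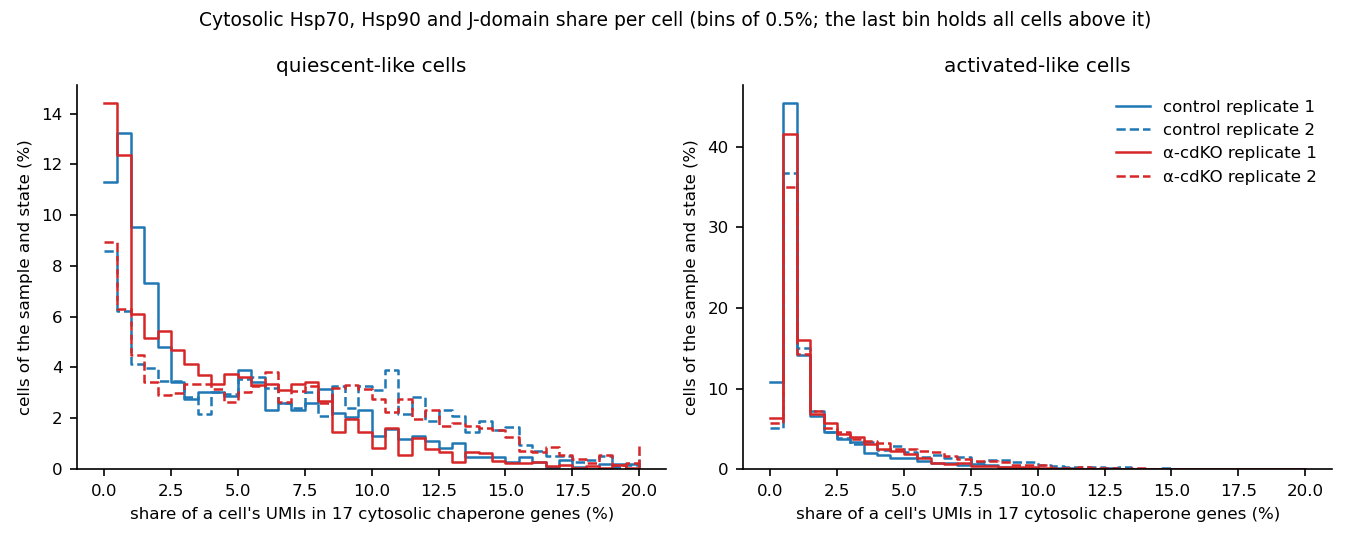
Distribution of the share of a cell's UMIs in the 17 cytosolic Hsp70, Hsp90 and J-domain genes, as percent of the cells of each sample and state in bins of 0.5%. Solid lines are replicates 1 and dashed lines replicates 2. Activated-like cells peak between 0.5% and 1% in all 4 samples, and quiescent-like cells spread far wider, further in the replicates numbered 2.

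The cells of each sample and state were split into 4 groups of equal size by this share, and the genes outside the 17 were then compared between the highest and lowest of these groups as a description. In activated-like cells the highest group had 21.5-fold the *Hspb1* level of the lowest (range over samples 18.5 to 22.96), 18.6-fold the *Hspe1* level (15.2 to 22.9) and 11.6-fold the *Hspd1* level (9.47 to 13.7). *Serpinh1* differed 4.14-fold (3.78 to 4.33) and the summed co-chaperones 4.68-fold. Against that, the ER sum stood at 0.935 of the lowest group's level, *Hspa5* at 0.846 and the chaperonin sum at 1.05. Among state markers, named after their values were seen, *Pax7*, the MuSC transcription factor, was 3.79-fold (2.53 to 5.92), the immediate-early gene *Fos* 6.37-fold (3.71 to 9.40) and *Myod1*, which marks activation, 0.623-fold (0.537 to 0.724). The summed immediate-early genes, *Fos* among them, were 1.72-fold (1.43 to 1.89). The median UMIs differed by 1.10-fold, and cells with the highest doublet scores made up 12.4% of the highest group and 1.99% of the lowest on average, whose part in these differences was not tested.

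In quiescent-like cells the highest group had 38.5-fold the *Hspb1* level of the lowest (26.5 to 52.5) and 17.99-fold the *Hspd1* level (16.1 to 19.6), and for both genes every sample lay above the range in activated-like cells. *Hspe1* was 17.4-fold (16.3 to 19.5), within its range there. The median share used for the split itself differed 17.6-fold between these groups in quiescent-like cells (16.2 to 19.4) and 8.05-fold in activated-like cells (6.41 to 9.85). The folds of the 2 states thus rest on unlike splits. *Hspa5* differed from its behavior in activated-like cells, at 2.88-fold in the highest group (2.70 to 3.02), while the chaperonin sum was at 1.11-fold. Immediate-early genes were 4.15-fold higher (3.20 to 5.00), and *Fos* alone was 4.27-fold (3.79 to 4.65). *Pax7* differed less than in activated-like cells, at 1.12-fold (1.00 to 1.29), and *Myod1* was at 1.45-fold (0.838 to 1.91), higher in 3 samples. Further markers were mixed. The quiescence marker *Hes1* was higher in all 4 samples of both states, at 2.20-fold in activated-like and 1.29-fold in quiescent-like cells. Of the activation markers, *Dio2* was at 0.508-fold and 0.691-fold in the same order, and *Cxcl2* at 0.469-fold and 2.65-fold (0.626 to 4.70 in quiescent-like cells). The highest group also had 1.55-fold the median UMIs and 0.677 of the mitochondrial share, and the part of depth and RNA quality in these differences was not tested.

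Pairwise correlations across cells were taken as a further description. Pearson's r of log(1 + UMIs per 10000) was taken within each sample and state over the 3071 to 6509 activated-like and 1081 to 1811 quiescent-like cells of a sample, which share a library and differ in depth, and no p is given. For these correlations, the cytosolic members were the 20 at 50 CPM or more outside the small heat-shock group, so *Hspb1* and *Cryab* were left out. Their median r over 190 pairs was 0.25 ± 0.05 in activated-like cells and 0.29 ± 0.02 in quiescent-like cells (mean ± SD over 4 samples). The median over all gene pairs was 0.01 to 0.02. Cytosolic with mitochondrial members gave 0.25 ± 0.05 and 0.29 ± 0.03, ER members among themselves 0.20 ± 0.03 and 0.15 ± 0.04, the 3 mitochondrial members among themselves −0.05 ± 0.04 and 0.08 ± 0.03, and chaperonin subunits 0.08 ± 0.02 and 0.08 ± 0.0045. Between cytosolic and ER members the median was −0.04 ± 0.04 in activated-like and 0.14 ± 0.02 in quiescent-like cells, and between cytosolic members and chaperonin subunits 0.02 ± 0.01 and 0.07 ± 0.0047. The closest pair was *Hspa1a* with *Hspa1b*, at 0.90 (0.87 to 0.93) in activated-like cells, for which shared reads cannot be set aside. *Hspd1* with *Hspe1*, the divergent neighbors whose shared promoter is shown above, gave 0.72 (0.67 to 0.77) and 0.73 (0.68 to 0.77) in quiescent-like cells, and *Dnajb1* with *Hspa1b* 0.72 (0.68 to 0.76) in activated-like cells.

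Against the sum of the 17 cytosolic genes, each gene's own counts left out, the 14 highest of 2041 genes in activated-like cells were all members. The members were chosen with earlier results of these data known, so their ranks are a description. *Hsph1* led at 0.79 (range over samples 0.77 to 0.81), and outside the 17 the highest were *Hspe1* at 0.74, *Hspb1* at 0.71, *Hspd1* at 0.68, *Cacybp* at 0.61 and *Bag3* at 0.49. *Hspa9* (−0.13), *Dnajb11* (−0.14) and *Dnajb9* (−0.19) were the lowest of the members, at ranks 1828, 1877 and 1967, and the lowest of all genes was *Mt2* (−0.32). In quiescent-like cells the 12 highest of 1779 genes were members, led by *Hspa1b* at 0.84, and the next 7 were not. *Dnaja4* (0.50) and *Cacybp* (0.48) followed at ranks 20 and 23. For *Hspa1a* and *Hspa1b*, the sum in either state still held the other, near-identical copy, so shared reads cannot be set aside for their ranks. *Hspa5* was at 0.39 (0.38 to 0.40), whereas in activated-like cells it was at −0.11 (−0.18 to −0.02). The ranges of *Hspa5* did not overlap between the states. The 10 genes outside the list that were most like the sum in activated-like cells were *Maff* (0.42), *Ifrd1* (0.42), *Mrps6* (0.40), *Jund* (0.39), *Chchd2* (0.39), *St13* (0.37), *Slc5a3* (0.37), *Swt1* (0.35), *P4ha1* (0.34) and *Ahsa2* (0.32). In quiescent-like cells they were *Junb* (0.60), *Maff* (0.57), *Cebpb* (0.56), *Egr1* (0.55), *Atf3* (0.54), *Ppp1r15a* (0.53), *Ubb* (0.51), *Ifrd1* (0.49), *Swt1* (0.49) and *Coq10b* (0.48), among them the immediate-early genes *Junb*, *Egr1* and *Atf3*.

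**Figure D4:**
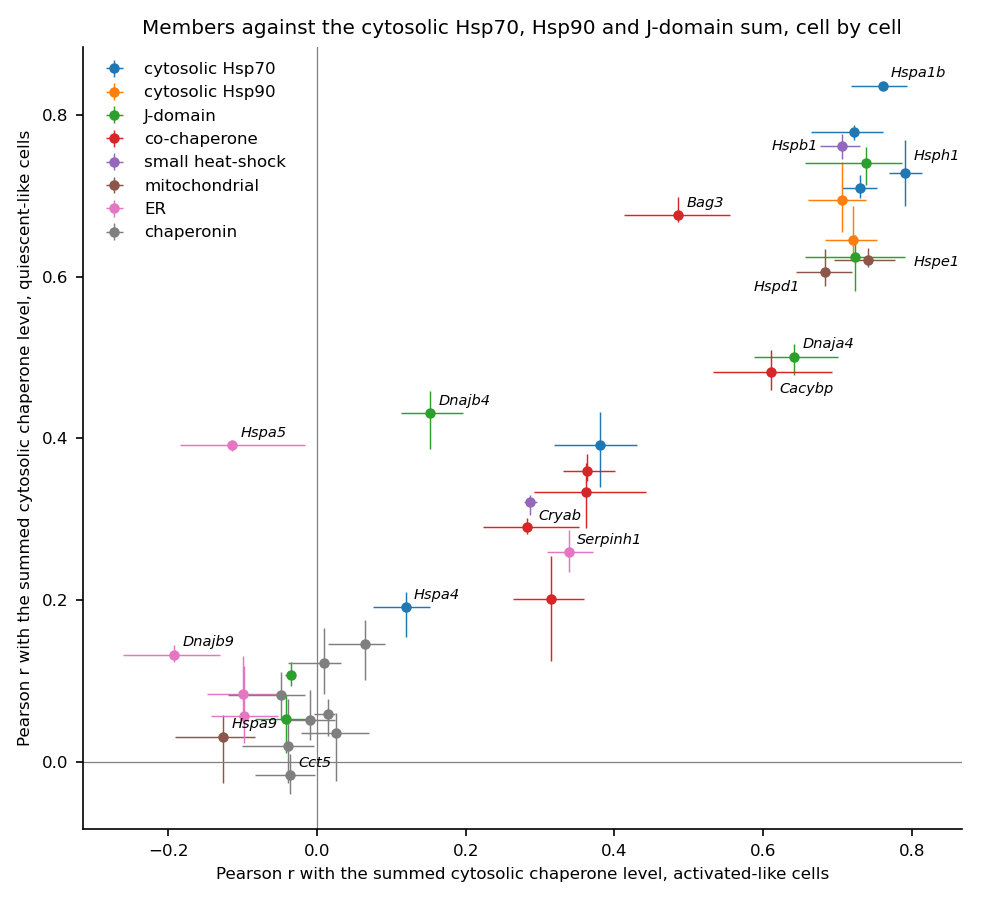
Pearson's r of each member with the summed 17 cytosolic genes across cells, in activated-like (x axis) and quiescent-like cells (y axis). Points are means over the 4 samples, lines the range over samples, and colors the groups. *Hspb1*, *Hspe1* and *Hspd1* lie with the cytosolic members at the upper right, the chaperonin subunits lie near 0, and *Hspa5* is positive only on the y axis.

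As sums, the cytosolic and the mitochondrial members were higher in the replicates numbered 2 than in those numbered 1 in both genotypes and both states. Single members were not uniform. In quiescent-like cells, the ratio of replicate 2 to replicate 1 for *Hspa9* was 0.768 in control and 0.914 in α-cdKO. In activated-like cells, 26 of 42 members with a mean of at least 20 CPM were higher in replicate 2 of both genotypes (19.0% of 3923 genes) and 2 were lower (23.7%). In quiescent-like cells 23 were higher (19.3%) and 7 lower (37.4%). The ratio of replicate 2 to replicate 1 in activated-like cells was 2.20 and 2.26 in control and α-cdKO for *Hspa1b*, 1.60 and 2.81 for *Hspa1a*, 2.60 and 1.55 for *Hspe1* and 2.31 and 1.24 for *Hspb1*. *Hspa5* stood at 0.958 and 1.22, which is on opposite sides of 1 in the 2 genotypes. The labels give the replicate number no meaning, and its part in the values was not tested.

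Between genotypes, none of the 50 members passed the test. Each sample's UMIs were added up over all myogenic cells, or over its activated-like or quiescent-like cells, and compared by edgeR (quasi-likelihood fit, p adjusted by Benjamini-Hochberg over all genes). All 50 passed the filter on low counts in each fit. Over all myogenic cells 0 members were called, where 0.178% of 14636 genes were, and DESeq2 also called 0, with 2 members at an unadjusted p under 0.05 by each tool (1035 genes by edgeR). In activated-like cells 0 were called (0.255% of 13317 genes), and 2 had an unadjusted p under 0.05 by each tool (965 genes by edgeR). In quiescent-like cells 0 were called (0.158% of 12032 genes), and 1 had an unadjusted p under 0.05 by each tool (963 genes by edgeR). The members' median log2 fold change of α-cdKO over control was 0.01, 0.03 and 0.02 in these fits. In sums over all myogenic cells, another mix of states and another level per cell cannot be told apart, and with 2 pooled samples per genotype the p-values measure only the spread between these samples.

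**Figure D5:**
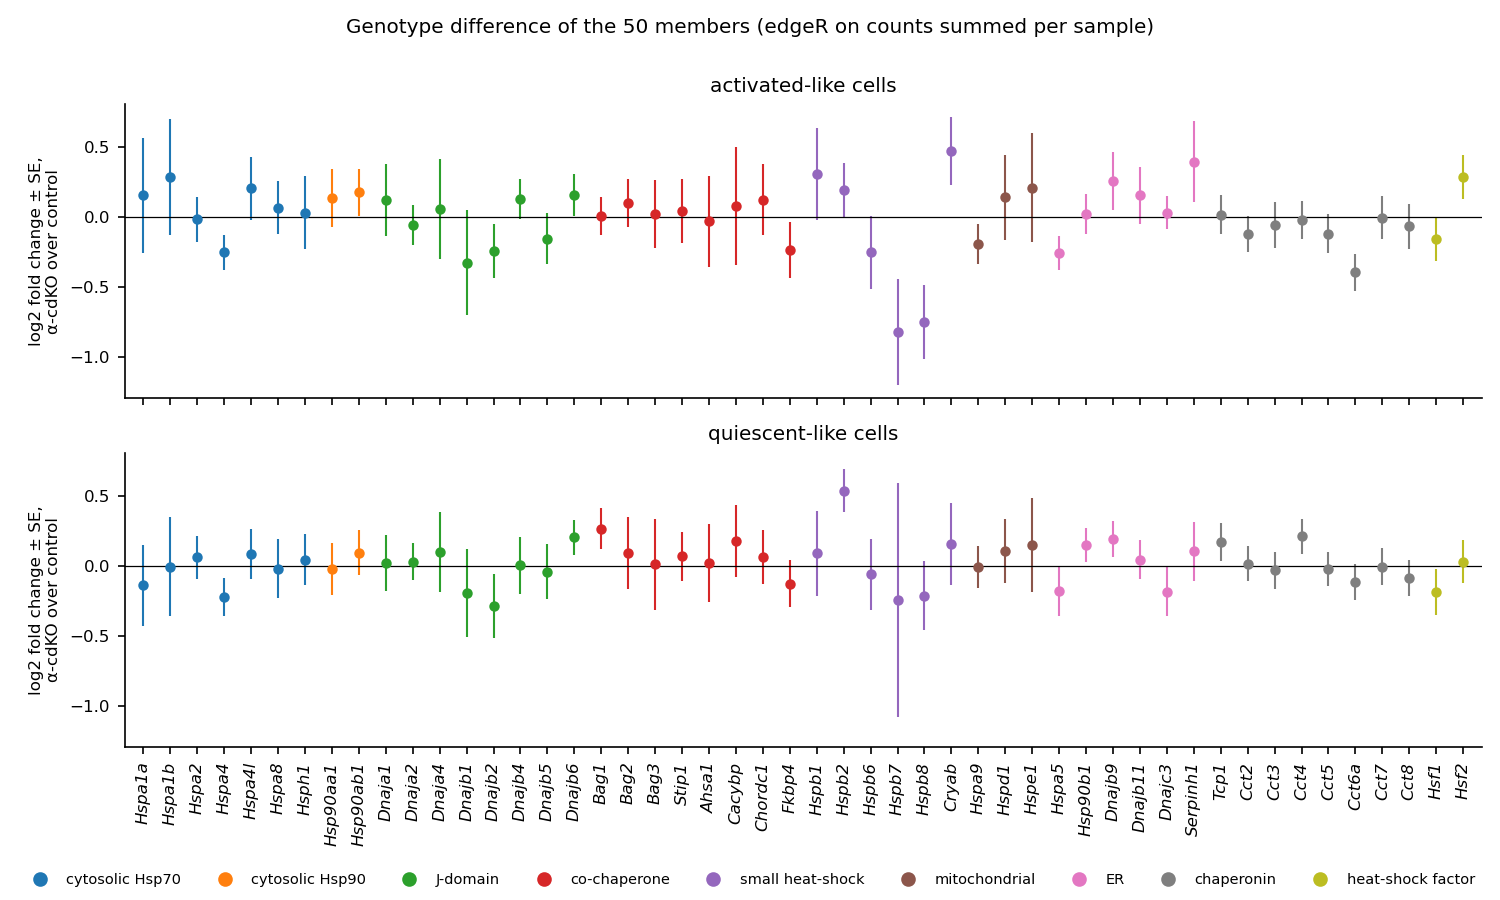
Log2 fold change of α-cdKO over control for the 50 members in activated-like (top) and quiescent-like cells (bottom), from edgeR on counts summed per sample. Points are estimates, bars ± 1 SE, colors the groups. No member passed an adjusted p under 0.05 in either panel, and the longest bars belong to the sparse *Hspb7* and to stress-inducible members such as *Hspa1a* and *Hspe1*.

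Among members that did not overlap between genotypes over all myogenic cells, 3 were higher in both α-cdKO samples (19.0% of genes) and 9 lower (19.9%). The 5 lowest estimates were those of *Hspb7*, *Hspb8*, *Dnajb1*, *Cct6a* and *Dnajb2*. *Cct6a* was at 209 and 214 CPM (control) and 165 and 166 CPM (α-cdKO), on a scale normalized between samples, with a log2 fold change of −0.35 ± 0.11 SE and an adjusted p of 0.62 by edgeR. The genotypes did not overlap for this subunit, which in activated-like cells was at 210.0 and 242 CPM (control) and 177 and 166 CPM (α-cdKO) (log2 fold change −0.40 ± 0.13 SE). *Dnajb2* was at 43.6 and 42.8 CPM (control) and 26.8 and 42.5 CPM (α-cdKO) (log2 fold change −0.32 ± 0.22 SE) and *Dnajb1* at 1328 and 2082 CPM (control) and 782 and 1882 CPM (α-cdKO) (log2 fold change −0.36 ± 0.40 SE), and in both α-cdKO replicate 1 was the lowest sample. *Hspb8*, a partner of Bag3, was at 11.3 and 19.1 CPM (control) and 9.15 and 11.8 CPM (α-cdKO) (log2 fold change −0.54 ± 0.27 SE) over all myogenic cells, and *Hspb7* at 0.74 and 0.992 CPM (control) and 0.683 and 0.336 CPM (α-cdKO) (log2 fold change −0.76 ± 0.42 SE), from 34, 41, 49 and 24 UMIs. Both are genes of mature muscle-like cells, and in activated-like cells the 8 summed mature muscle markers ran at 174, 471, 326 and 177 CPM, whose part in these values was not tested. In activated-like cells *Hspb8* was at 10.4 and 18.3 CPM (control) and 7.50 and 9.50 CPM (α-cdKO) (log2 fold change −0.75 ± 0.27 SE), with an adjusted p of 0.609 by edgeR. Without the filter on low counts, *Hspb8* and *Cryab* were the 2 members called in activated-like cells, where 1.65% of 21066 genes were. With 1 sample left out, the estimates over all myogenic cells ran from −0.69 to −0.0224 for *Dnajb2*, −0.86 to −0.12 for *Hspb8* and −1.36 to −0.34 for *Hspb7*, and that of *Cct6a* from −0.37 to −0.33.

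The 5 highest estimates were those of *Hspb2*, *Cryab*, *Serpinh1*, *Hsf2* and *Dnajb9*. *Hspb2* was at 10.4 and 11.3 CPM (control) and 14.3 and 14.8 CPM (α-cdKO) (log2 fold change 0.43 ± 0.14 SE), and in quiescent-like cells at 14.3 and 15.7 CPM (control) and 21.1 and 22.4 CPM (α-cdKO) (log2 fold change 0.53 ± 0.15 SE), from 113, 138, 218 and 284 UMIs, with an adjusted p of 0.421 by edgeR. The genotypes were separated for *Hspb2* and for *Hsf2*, which was at 12.5 and 13.3 CPM (control) and 16.3 and 15.5 CPM (α-cdKO) (log2 fold change 0.30 ± 0.14 SE). *Cryab* was at 1459 and 2269 CPM (control) and 1800.2 and 2912 CPM (α-cdKO) (log2 fold change 0.34 ± 0.28 SE), *Serpinh1* at 367 and 614 CPM (control) and 519 and 690.2 CPM (α-cdKO) (log2 fold change 0.30 ± 0.26 SE) and *Dnajb9* at 176 and 238 CPM (control) and 234 and 242 CPM (α-cdKO) (log2 fold change 0.20 ± 0.16 SE). For these 3 genes the genotypes overlapped, and control replicate 1 was the lowest sample. With 1 sample left out, the *Dnajb9* estimate ran from 0.00307 to 0.44.

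In activated-like cells 1 member was higher in both α-cdKO samples (18.8% of genes) and 7 lower (18.5%), and in quiescent-like cells 7 were higher (19.9%) and 3 lower (20.2%). Group sums differed by less than the replicate SD, except for the ER and chaperonin sums in activated-like cells, which were lower in α-cdKO by more than 1 SD. Both differences depended on single samples, and the log2 ratio of the ER sum was −0.05 without α-cdKO replicate 1 and −0.27 without α-cdKO replicate 2, whereas that of the chaperonin sum was −0.0150 without control replicate 2 and −0.25 without control replicate 1. The log2 ratio of the α-cdKO mean to the control mean in activated-like cells, beside the pooled SD of replicates on that scale, was 0.15 (SD 0.43) for the 31 cytosolic members, 0.15 (SD 0.66) for the mitochondrial, −0.16 (SD 0.11) for the ER and −0.14 (SD 0.12) for the chaperonin genes. In quiescent-like cells the ratios were −0.03 (SD 0.46), 0.11 (SD 0.54), −0.08 (SD 0.14) and −0.01 (SD 0.03). No p is given for these sums, since no exact permutation test of 2 against 2 samples can reach 0.05. *Hspa5* was lower in both α-cdKO samples in activated-like cells, at 4818 and 4776 CPM (control) and 3655 and 4377 CPM (α-cdKO) (log2 fold change −0.26 ± 0.12 SE). The estimate was not called, with an adjusted p of 0.721 by edgeR.

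The calls in activated-like cells depended on control replicate 2. Without that sample, edgeR called 5 members higher in α-cdKO (1.25% of 13972 genes were called in either direction), each with 1 control left and that control assumed to vary like the α-cdKO samples. These were *Hspb1* (log2 fold change 1.07, adjusted p = 0.00488), *Serpinh1* (log2 fold change 1.00, adjusted p = 0.0165), *Hspe1* (log2 fold change 1.09, adjusted p = 0.0294), *Cacybp* (log2 fold change 1.08, adjusted p = 0.0294) and *Hspd1* (log2 fold change 0.80, adjusted p = 0.0441). *Hspb1* was at 4138 and 9888 CPM (control) and 7813 and 9557 CPM (α-cdKO), and *Hspe1* at 1337 and 3595 CPM (control) and 2255 and 3443 CPM (α-cdKO). In both, control replicate 1 was the lowest sample and control replicate 2 the highest, so that the direction of the difference depended on which control was used. Without control replicate 1, all 5 estimates turned below 0, from −0.51 to −0.03. The test of whether the genotype effect differed between activated-like and quiescent-like cells called 0 of 13631 genes (0.00%) by edgeR, with 571 genes and 5 members at an unadjusted p under 0.05. DESeq2 was not run for that test. Leaving out control replicate 1, control replicate 2, α-cdKO replicate 1 or α-cdKO replicate 2 gave 107, 69, 10 and 12 called genes (0.761%, 0.479%, 0.0707% and 0.0846% of those tested), of which 3, 7, 2 and 1 were members. The members were *Hspa5*, *Dnajb4* and *Cryab* without control replicate 1, *Hspd1*, *Hspe1*, *Cacybp*, *Dnaja1*, *Hspb1*, *Serpinh1* and *Hsp90aa1* without control replicate 2, *Hspa1b* and *Hspa1a* without α-cdKO replicate 1 and *Hspb1* without α-cdKO replicate 2. *Hspb1* alone was called in more than 1 of these 4 fits, with differences of 0.49 and 0.52 on the log2 scale, and with all 4 samples its adjusted p was 0.999 by edgeR.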

How the data were processed

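Single-cell libraries (10x 3′ v.3) from 2 control and 2 α-cdKO samples were used as UMI counts per gene and cell barcode, which the authors deposited after Cell Ranger 7.1.0 had aligned reads to GRCm38 (mm10) and called cells. The submitters' notes also name Seurat 4.0.3, and no cell annotation was used here. Counts of the 32285 genes were kept for barcodes with 1000 UMIs or more, 400 genes or more and a mitochondrial share below 15%. Cells were clustered in Seurat 5.3.0 (R 4.3.3) on 2000 variable genes, 30 principal components, a Harmony-type integration written for this purpose and Louvain resolution 0.2, with 26 chaperone genes left out of the variable genes. Clusters took a name from fixed markers when at least 3 were raised 1.5-fold. The members, gene lists and markers were chosen with earlier results of these data known. Doublet scores came from Scrublet (scanpy 1.11.5), and all cells were kept in the main values, since the automatic threshold marked only 0 to 5 cells per sample, and an alternative removed the highest scores at 0.8% per 1000 cells.

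Counts were summed per sample and state and tested with edgeR 4.0.16 (quasi-likelihood, TMM scaling, Benjamini-Hochberg adjustment, filter on low counts), with DESeq2 1.42.0 as an alternative, and the tests were checked on simulated data. The genotype effect was compared between activated-like and quiescent-like cells with an interaction term. Values in every sample are given for up to 3 members per group with the highest CPM, the 5 largest ratios between activated-like and quiescent-like cells in each direction, the 5 highest and 5 lowest genotype estimates over all myogenic cells and any member called, and, outside the members, the 10 genes most like the summed cytosolic members are named. Ratios between states required a mean of 20 CPM in either state and correlations 50 CPM. UMI counts near the 3′ end are not scaled by gene length, so levels were compared within a gene and not between genes, except as UMI counts. The replicate numbers have no stated meaning in the labels. Promoters and gene positions are from RefSeq and GENCODE annotations of GRCm38. The alternatives tried are another normalization and tool, no filter, each sample left out, a replicate block, a minimum of 2000 UMIs, doublets removed, other clusterings, and thinning to 4000 UMIs.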

Additional observations from a re-analysis of the deposited data

How the results depend on the processing

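The 9 group ratios between activated-like and quiescent-like cells, and those of the 10 members with the largest ratios, kept their direction in all alternatives run. Other members were not run, and the sizes moved with the clustering. Of the group ratios, 78 alternative values stayed within the spread between samples and 21 did not. With the chaperone genes kept among the clustering genes, the log2 ratios were −3.88 for Hsp70, −0.88 for Hsp90, −2.38 for J-domain, −1.66 for co-chaperone, −2.29 for small heat-shock, −1.57 for mitochondrial and 2.09 for ER genes. At Louvain resolution 0.4 they were −3.33 for Hsp70, −2.002 for J-domain, −1.44 for co-chaperone, −1.58 for small heat-shock, −0.96 for mitochondrial, 2.06 for ER and 0.55 for chaperonin genes. Without integration, J-domain and co-chaperone ratios were −1.28 and −1.06. With the highest doublet scores removed, Hsp70 and co-chaperone ratios were −2.35 and −1.23. As a mean over cells of each cell's share, J-domain, co-chaperone and ER ratios were −1.26, −1.01 and 1.68. With the chaperone genes kept and at resolution 0.4, cells high in chaperone genes formed unnamed clusters outside both states. The cause of the other shifts was not tested.

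The number of genes called between genotypes was less stable. Members were called only without the filter on low counts or without control replicate 2 in activated-like cells, and in the test of a difference between states with 1 sample left out, as named above. Over all myogenic cells the 26 called genes became 120 by DESeq2, 14 without the filter on low counts, 0 over all kept cells, 49 without cycling-, differentiated- and mature muscle-like cells, and 1 to 48 with 1 sample left out. In activated-like cells 34 became 104 by DESeq2, 348 without the filter and 18 to 175 with 1 sample left out. In quiescent-like cells 19 became 47, 299 and 13 to 63. Over all genes, deviations of same-numbered samples correlated at −0.19, −0.18 and 0.02 over all myogenic, activated-like and quiescent-like cells, and over the 50 members at 0.57, 0.45 and 0.21. The labels do not say what a number marks, so the numbers were not taken as pairs. With a replicate block, 13, 31 and 99 genes were called in these 3 fits, and 0 members in each. With the pairing crossed, chosen after seeing the data, the counts were 148, 179 and 74. For the test of a difference between activated-like and quiescent-like cells, leaving out 1 sample, also chosen after seeing the data, gave 10 to 107 genes.

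With 1 sample left out, the genotype ratio of the mitochondrial sum in activated-like cells ran from −0.34 to 0.88, that of the cytosolic sum from −0.17 to 0.56, that of the ER sum from −0.27 to −0.05 and that of the chaperonin sum from −0.25 to −0.0150. In quiescent-like cells the mitochondrial ratio ran from −0.32 to 0.54, the cytosolic from −0.41 to 0.32, the ER from −0.21 to 0.0490 and the chaperonin from −0.0415 to 0.0195. Estimates of single members turned sign when a sample was left out, over all myogenic cells for *Dnajb1* (−1.12 to 0.14), *Serpinh1* (−0.0191 to 0.72) and *Cryab* (−0.0490 to 0.69). In activated-like cells they did so for *Hspd1* (−0.31 to 0.80), *Hspe1* (−0.34 to 1.09), *Cacybp* (−0.51 to 1.08), *Hspb1* (−0.19 to 1.07) and *Serpinh1* (−0.0302 to 1.00). *Hspb2* turned to −0.15 over all kept cells, which include mature muscle-like cells, mostly of control replicate 2.

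In another setting, cells under 4000 UMIs were left out and each other cell was reduced at random to 4000 UMIs. This left 2936 to 5982 activated-like and 873 to 1550 quiescent-like cells per sample, so both the depth and the set of cells changed. Small heat-shock genes were again not among the cytosolic members. The median correlation in activated-like cells was 0.18 among cytosolic, 0.14 among ER and 0.0384 among chaperonin members. Between groups it was 0.19 for cytosolic with mitochondrial members and 0.0043 for cytosolic members with chaperonin subunits. In quiescent-like cells it was 0.22 among cytosolic, 0.10 among ER, 0.0321 among mitochondrial and 0.0316 among chaperonin members, and 0.0830, 0.22 and 0.0219 between cytosolic members and ER, mitochondrial and chaperonin members. Among the sparse members, *Hspb7* rests on 24 to 49 UMIs per sample.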

Other observations

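The 181 endothelial-like cells also held cytosolic Hsp70 transcripts. Their sum was 19334 and 25006 CPM in the controls and 15880 and 22241 CPM in the α-cdKO samples, above the activated-like and below the quiescent-like value of each sample, and replicate 2 was again the higher in both genotypes.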
